A study of Mus musculus with 6 samples.

Results

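The connective tissue mast cell genes were examined in the epididymal fat of mice (Mus musculus), a visceral depot of white adipose tissue. They comprise 8 genes out of 54532 gene identifiers in the count table, and they were taken by their symbols: the granule proteases Cpa3, Mcpt4, Tpsb2 and Cma1, the growth factor receptor Kit, the IgE receptor chains Ms4a2 and Fcer1a, and the histamine enzyme Hdc. All 8 were found. Knockout mice lacked PD-1, an inhibitory receptor, in myeloid cells (PD-1fl/fl Lyz2-Cre), and controls were littermates that carried the same floxed gene without the recombinase (PD-1fl/fl). Both groups were fed a high-fat diet for 16 weeks, and each had 3 libraries. Lyz2 drives Cre in several myeloid cell types, among them macrophages and neutrophils, so the deletion was not limited to 1 cell type. The labels used here do not say how old the mice were or whether each library came from its own mouse, so p-values measure the spread between these libraries.

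Mast cells are long-lived tissue cells of the immune system that lie along vessels and nerves, and in fat they lie among the adipocytes. They store proteases and histamine in granules bound to the proteoglycan serglycin, and release them when antigen cross-links IgE held on the high-affinity IgE receptor. Their survival depends on Kit, which binds stem cell factor. In mice, connective tissue mast cells hold tryptase, chymase and carboxypeptidase A3 together, whereas mucosal mast cells use other chymases of the same gene cluster.

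Libraries held 22813206 to 25441746 counts in knockouts and 20108185 to 27225533 counts in controls. Pdcd1, the deleted gene, had 19, 19 and 5 counts in knockouts and 13, 0 and 0 counts in controls, which is too few to check the genotype labels, and other cells of fat also express it. Control replicate 2 had the profile of liver rather than of fat. The albumin gene Alb took 8.27% of its counts, against 0.000483% to 0.436% in the other libraries. The adipocyte gene Adipoq had 125 counts in that library, against 23302 to 97427 in the other libraries. The tests of the members are therefore given with all 6 libraries and without control replicate 2. Knockout replicate 2 and control replicate 3 also held liver transcripts, with Alb at 0.0817% of counts in that knockout and 0.436% in that control, so the comparison of 5 libraries is not free of them.

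The proximal promoters of 3 proteases, those with a RefSeq promoter given, are shown first, and their genes lie on chromosomes 3 and 14. Each is the 250 bases before the RefSeq start on GRCm38.p6, read 5′ to 3′ on the gene's minus strand, and capitals mark a GATA motif. The motif was searched on both strands in 4 spellings, AGATAA and its variant ending in G (AGATAG) plus TGATAA with the variant that likewise ends in G (TGATAG), so a capital stretch can be the reverse complement of one of these. The windows are chr3:20242182-20242431 for Cpa3, chr14:56062311-56062560 for Mcpt4 and chr14:55944676-55944925 for Cma1.
Cpa3: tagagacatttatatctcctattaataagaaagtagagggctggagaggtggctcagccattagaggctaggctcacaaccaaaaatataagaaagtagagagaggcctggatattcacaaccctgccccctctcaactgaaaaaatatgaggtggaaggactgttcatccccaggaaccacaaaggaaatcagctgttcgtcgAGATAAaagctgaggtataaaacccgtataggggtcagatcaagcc
Mcpt4: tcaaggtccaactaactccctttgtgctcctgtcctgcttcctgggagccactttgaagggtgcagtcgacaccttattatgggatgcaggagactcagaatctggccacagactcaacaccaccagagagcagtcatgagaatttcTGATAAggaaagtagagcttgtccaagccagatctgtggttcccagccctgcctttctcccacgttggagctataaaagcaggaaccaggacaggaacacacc
Cma1: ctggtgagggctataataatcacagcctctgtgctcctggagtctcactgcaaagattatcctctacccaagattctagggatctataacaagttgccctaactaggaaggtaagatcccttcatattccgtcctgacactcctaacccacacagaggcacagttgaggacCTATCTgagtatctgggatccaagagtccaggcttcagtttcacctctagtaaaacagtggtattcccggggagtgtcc

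Each of these 3 windows held 1 GATA motif. It lay 46 to 41 bases before the start in Cpa3 (AGATAA), 103 to 98 bases before it in Mcpt4 (TGATAA), and 79 to 74 bases before it in Cma1, where it read AGATAG on the opposite strand. RefSeq promoters were given for 7 of the 8 genes, all but Tpsb2. Of the 7 windows, 6 held the motif, against 26.5% of 32851 promoter windows of the same length. Ms4a2 had 3 matches. Fcer1a and Hdc had 1 match each, and Kit had none. The E box of MITF, spelled CACATG or with a central CG (CACGTG), occurred in the Fcer1a window alone among the 7, against 17.6% of all windows. The PU.1 motif GAGGAAGT occurred in none of the 7 windows, against 2.44% of all. These are matches of letters and do not show binding.

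The granule proteases were low in absolute terms and were highest in knockout replicates 1 and 2. Together Cpa3, Mcpt4, Tpsb2 and Cma1 had 663, 1044 and 292 counts in knockouts and 163, 0 and 279 counts in controls. As a share of the library's counts (ppm, counts per 1000000 counts) this was 26.1, 45.8 and 12.1 ppm in knockouts and 5.99, 0 and 11.5 ppm in controls. The 95% exact Clopper-Pearson interval of knockout replicate 3 was 10.8 to 13.6 ppm and that of control replicate 3 was 10.2 to 12.9 ppm, so these 2 libraries could not be told apart at this depth. In control replicate 2, 0 of 20108185 counts allows a share of up to 0.149 ppm when 3 counts are taken as the limit, and of up to 0.183 ppm by the exact two-sided interval. These intervals and limits cover counting error only. In bulk tissue, fewer mast cells and less protease RNA per mast cell cannot be told apart.

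**Figure D1:**
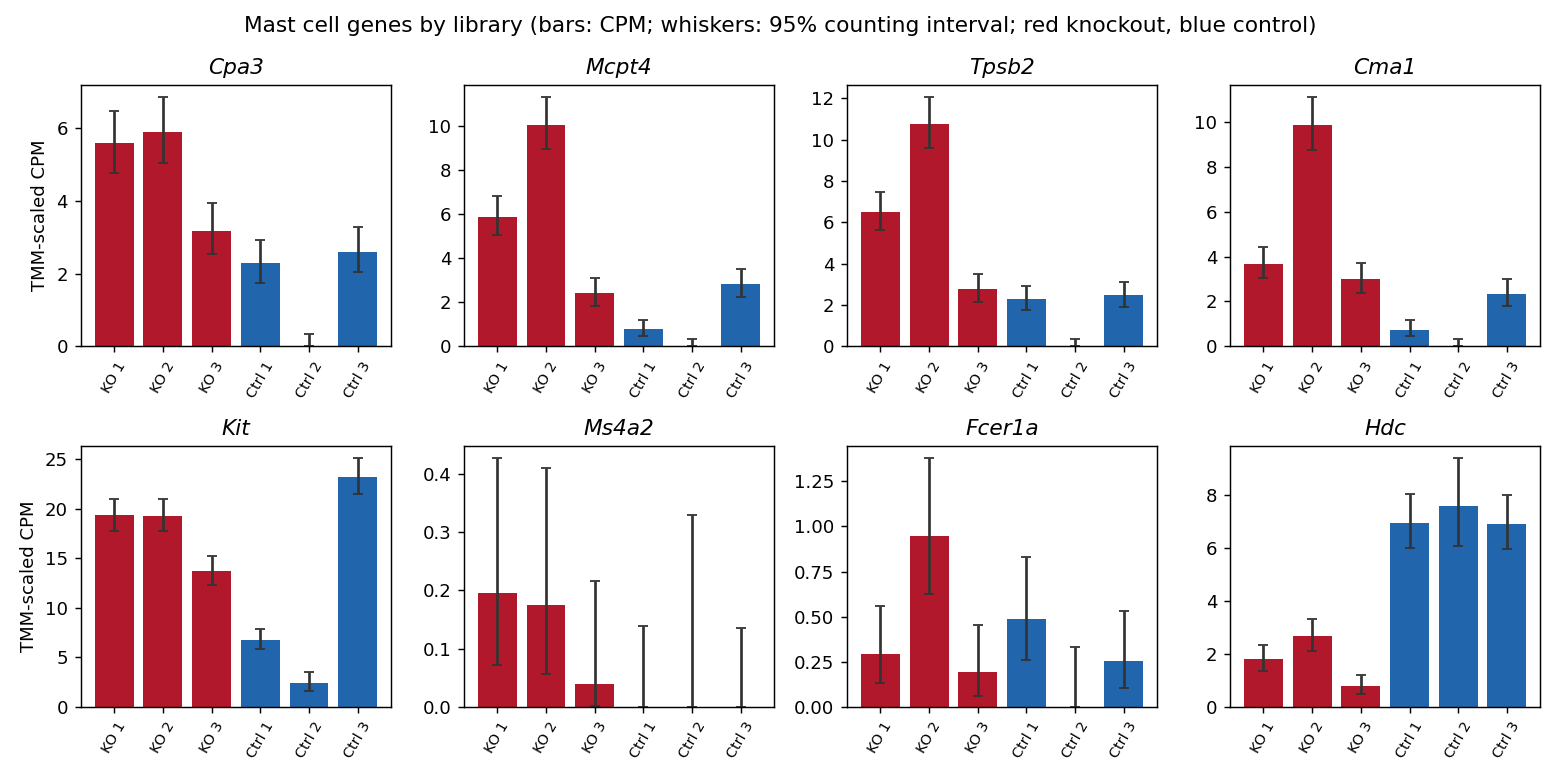
Expression of the 8 mast cell genes in TMM-scaled CPM (vertical axes, which differ between genes) in the 3 knockout libraries (KO, red) and the 3 control libraries (Ctrl, blue). Bars are the value of 1 library and whiskers its 95% exact Poisson counting interval. For Cpa3, Tpsb2 and Cma1 the lowest knockouts stood at 3.18, 2.76 and 2.99 CPM, above the highest controls at 2.60, 2.46 and 2.35 CPM. For Hdc the highest knockout stood at 2.67 CPM, below the lowest control at 6.93 CPM.

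Cpa3 (chromosome 3, 20215620 to 20242181, minus strand, mm10) encodes carboxypeptidase A3, a metalloprotease that removes the last residue of peptides. It had 171, 168 and 82 counts in knockouts and 61, 0 and 71 counts in controls. In counts per 1000000 (CPM), scaled by the TMM method, which adjusts for composition, this was 5.59, 5.89 and 3.18 CPM in knockouts and 2.28, 0 and 2.60 CPM in controls. Each knockout was above each control, and knockout replicate 3 lay closest to control replicate 3. Their 95% counting intervals overlapped, at 2.53 to 3.95 CPM in the knockout and 2.03 to 3.28 CPM in the control. Knockout over control, the edgeR log2 fold change was 1.56 ± 1.18 (SE), and its p adjusted over all genes tested was 0.720. It was 1.02 ± 0.45 without control replicate 2 (edgeR adjusted p 0.567).

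Tpsb2 (chromosome 17, 25366305 to 25369098, plus strand) encodes a tryptase, the serine protease that cuts after basic residues and forms tetramers with heparin. It had 199, 307 and 71 counts, or 6.50, 10.8 and 2.76 CPM, in knockouts and 61, 0 and 67 counts, or 2.28, 0 and 2.46 CPM, in controls. The groups did not overlap, but knockout replicate 3 and control replicate 3 differed by 4 counts. The log2 fold change was 2.05 ± 1.24 (SE, edgeR adjusted p 0.649), and 1.52 ± 0.65 without control replicate 2 (adjusted p 0.563).

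Mcpt4 (chromosome 14, 56059629 to 56062313, minus strand) encodes a chymase, the mouse protease closest in activity to human chymase. It had 180, 287 and 62 counts, or 5.88, 10.1 and 2.41 CPM, in knockouts and 21, 0 and 77 counts, or 0.786, 0 and 2.82 CPM, in controls. Control replicate 3 was above knockout replicate 3, so the groups overlapped. The log2 fold change was 2.31 ± 1.29 (SE, edgeR adjusted p 0.614). It was 1.79 ± 0.84 without control replicate 2 and 3.82 without control replicate 3 (adjusted p 0.578 and 0.355). The fit without control replicate 3 kept control replicate 2, the liver library, which had no counts of Mcpt4.

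Cma1 (chromosome 14, 55941451 to 55944675, minus strand) belongs to the same gene cluster, and its mouse product has an elastase-like specificity. It had 113, 282 and 77 counts, or 3.69, 9.89 and 2.99 CPM, in knockouts and 20, 0 and 64 counts, or 0.749, 0 and 2.35 CPM, in controls. The groups did not overlap, and knockout replicate 2 stood well above the other knockouts. The log2 fold change was 2.37 ± 1.26 (SE, edgeR adjusted p 0.593). Leaving out control replicate 2 gave 1.87 ± 0.81, and leaving out control replicate 3 gave 3.74 (adjusted p 0.563 and 0.355). The latter fit kept control replicate 2, the liver library, which had no counts of Cma1.

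Within the chymase cluster on chromosome 14, from 55941451 to 56102574, Cma1 and Mcpt4 carried nearly all reads. Of 8 protein-coding genes in that interval, 5 had no counts in any library: Cma2, the mucosal mast cell proteases Mcpt1 and Mcpt2, Mcpt9, and the basophil protease Mcpt8. Ctsg, the cathepsin G gene, had 2, 5 and 0 counts in knockouts and none in controls. Cma2 was looked up after the values were seen. In the tryptase cluster on chromosome 17, Tpsab1, the other tryptase of connective tissue mast cells, had 8, 14 and 0 counts in knockouts and 0, 0 and 8 counts in controls, far below its neighbour Tpsb2. Tpsg1, a membrane-anchored tryptase, had 2, 3 and 3 counts in knockouts and 3, 0 and 0 counts in controls. At the sequence level the counts of the members were little exposed to copies: no stretch of 100 bases of the longest coding transcript was shared with another gene for 6 of the 8 members, Mcpt4 shared 0.0991% of such stretches with Cma2, and Ms4a2 shared 0.567% with Ms4a4b.

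The mix of proteases differed between libraries by more than counting error. Cpa3 made up 25.8%, 16.1% and 28.1% of protease counts in knockouts and 37.4% and 25.4% in control replicates 1 and 3. Mcpt4 made up 27.1%, 27.5% and 21.2% in knockouts and 12.9% and 27.6% in those controls. The exact 95% intervals for Mcpt4 were 23.8% to 30.7% in knockout replicate 1 and 24.8% to 30.3% in knockout replicate 2, above the 8.16% to 19.0% of control replicate 1. The interval of knockout replicate 3, at 16.7% to 26.4%, overlapped that of control replicate 1, and control replicate 3 had one of 22.4% to 33.2%. For Cma1 the intervals of knockout replicate 1 (14.3% to 20.1%) and control replicate 1 (7.66% to 18.3%) overlapped. These shares do not depend on how libraries are scaled to each other.

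The IgE receptor chains were at the edge of detection. Ms4a2 (chromosome 19, 11615523 to 11623719, minus strand), the beta chain that amplifies the receptor's signal, had 6, 5 and 1 counts in knockouts and none in controls. It did not pass edgeR's filter on low counts with 6 libraries or without control replicate 2. With fewer than 3 counts taken as the floor, Ms4a2 was above it in knockout replicates 1 and 2 only, and no fold is given. Fcer1a (chromosome 1, 173221284 to 173227214, minus strand), the chain that binds IgE, had 9, 27 and 5 counts in knockouts and 13, 0 and 7 counts in controls. The groups overlapped, and knockout replicate 2 was highest. Fcer1a did not pass the filter with all 6 libraries. Without control replicate 2 it did, with a log2 fold change of 0.39 ± 0.99 (SE, edgeR adjusted p 0.923), and with no filter and 6 libraries it was 0.91 ± 1.35 (edgeR adjusted p 0.835). With no filter and 6 libraries the edgeR adjusted p of Ms4a2 was 0.666. These counts were too few to decide whether either chain differed between the groups.

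Kit (chromosome 5, 75574916 to 75656722, plus strand), the receptor of stem cell factor, did not separate the groups. It had 592, 551 and 353 counts, or 19.3, 19.3 and 13.7 CPM, in knockouts and 181, 27 and 634 counts, or 6.78, 2.41 and 23.2 CPM, in controls. Control replicate 3 was the highest of the 6 libraries. The log2 fold change was 0.69 ± 0.77 (SE, edgeR adjusted p 0.836). It depended on single controls, at 0.44 without control replicate 1, 0.24 without control replicate 2 and 1.91 without control replicate 3 (adjusted p 0.906, 0.910 and 0.355). The last of these fits kept control replicate 2, the liver library, which was lowest for Kit. Kit was present in control replicate 2 although the 4 proteases were not. Per 100 protease counts Kit had 89.3, 52.8 and 121 counts in knockouts and 111 and 227 counts in control replicates 1 and 3, so its ratio to the proteases varied within both groups. Kit is also made by other cells, among them melanocytes and innate lymphoid cells. In a list of genes of melanocytes and other Kit sources, 2 of 5 tested genes were above 0, with a median of −0.14, and −0.55 without control replicate 2. The melanocyte gene Dct had 70, 57 and 93 counts in knockouts and 91, 226 and 118 counts in controls, and Pmel had 13, 21 and 27 counts in knockouts and 45, 21 and 14 counts in controls. Mlana had 4, 4 and 0 counts in knockouts and none in controls, and Tyrp1 had none in any library. Klrg1, a receptor of lymphoid cells, had 26, 20 and 75 counts in knockouts and 6, 2 and 25 counts in controls (1.70 ± 0.96 SE, edgeR adjusted p 0.616). Il2ra, the IL-2 receptor chain of lymphoid cells, had 136, 101 and 93 counts in knockouts and 33, 7 and 159 counts in controls. Ano1, also in that list, had 201, 188 and 170 counts in knockouts and 234, 12 and 323 counts in controls. Control replicate 3 was the highest library for Il2ra and Ano1, as it was for Kit, whereas Klrg1 was highest in knockout replicate 3.

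Hdc ran opposite to the proteases. Hdc (chromosome 2, 126593667 to 126619299, minus strand) encodes histidine decarboxylase, the enzyme that makes histamine, and it is expressed in mast cells, basophils and, under stimulation, other myeloid cells. It had 55, 76 and 20 counts, or 1.80, 2.67 and 0.776 CPM, in knockouts and 186, 85 and 189 counts, or 6.97, 7.60 and 6.93 CPM, in controls. Each knockout was below each control, and on this scale the 3 controls lay close together, at 1.75 ± 0.946 CPM in knockouts and 7.17 ± 0.378 CPM in controls (SD, n = 3). The SD of controls includes the liver library, whose TMM factor was 0.559, so it is not a spread of fat alone. The log2 fold change was −2.03 ± 0.56 (SE), with an unadjusted p of 0.00955 and an edgeR adjusted p of 0.560. Without control replicate 2 it was −1.97 ± 0.58 (edgeR adjusted p 0.540). With all 6 libraries scaled by total counts it was −1.58 ± 0.66 (edgeR, unadjusted p 0.0512, adjusted p 0.666). With DESeq2 Hdc was called lower, at an adjusted p of 0.0169 for the 6 libraries and of 0.0492 for the 5 without control replicate 2. Over all 20 alternatives the adjusted p of Hdc ranged from 0.0169 to 0.9999, and these 2 passed. DESeq2 called 1.57% of genes lower in knockouts with 6 libraries and 0.681% with 5.

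**Figure D2:**
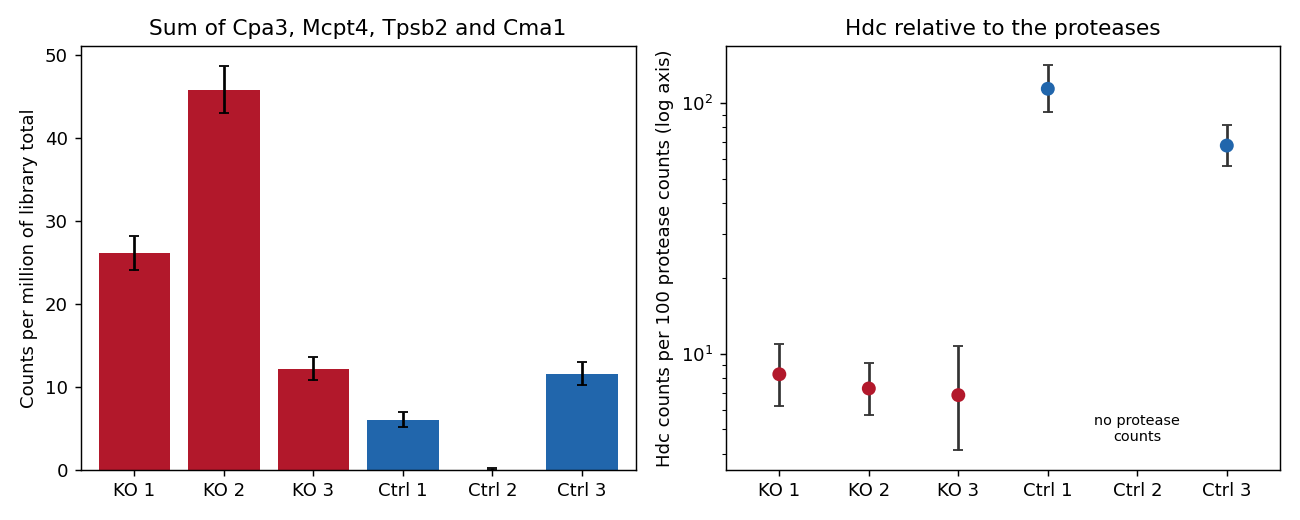
Left, the summed counts of Cpa3, Mcpt4, Tpsb2 and Cma1 in ppm of each library's counts, with 95% exact binomial intervals, for knockouts (red) and controls (blue). Right, Hdc counts per 100 protease counts on a log axis, with 95% intervals from the exact binomial: 6.85 to 8.30 in knockouts and 114 and 67.7 in control replicates 1 and 3, with no value for control replicate 2, which had 0 protease counts.

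Set against the proteases within the same library, which removes the scaling between libraries, Hdc had 8.30, 7.28 and 6.85 counts per 100 protease counts in knockouts and 114 and 67.7 in control replicates 1 and 3. The highest of the 3 knockouts had a 95% interval of 6.18 to 10.9, and the lower of the 2 controls one of 56.0 to 81.8. The lower control value was 8.17 times the highest knockout value. The ratio was computed after the opposite directions had been seen and is a description. In control replicate 2 Hdc had 85 counts where the proteases had none. The neutrophil list summed to 26.4, 21.7 and 13.3 CPM in knockouts and 202, 46.4 and 14.2 CPM in controls, and 1 of its 4 tested genes was above 0, with a median of −1.83. Its S100a9 had 1.90, 0.701 and 0.621 CPM in knockouts and 85.2, 22.3 and 1.10 CPM in controls. For S100a9 the adjusted p was 0.560 with edgeR and 0.00504 with DESeq2, and 0.0534 with DESeq2 without control replicate 2. Csf3r, the tested gene above 0, had 7.68, 11.1 and 2.06 CPM in knockouts and 9.36, 0.894 and 2.86 CPM in controls (0.66 ± 0.97 SE). Elane, the neutrophil elastase gene, had 13, 6 and 23 counts in knockouts and 28, 37 and 28 counts in controls, while Ly6g had 46 counts in control replicate 1 and none elsewhere. The part of neutrophil transcripts and of liver transcripts in the Hdc result was not tested. The share of counts from mitochondrial genes was 2.64% to 3.89% in knockouts and 5.45% to 9.08% in controls, and its part was likewise not tested. The basophil protease Mcpt8 had no counts in any library.

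**Figure D3:**
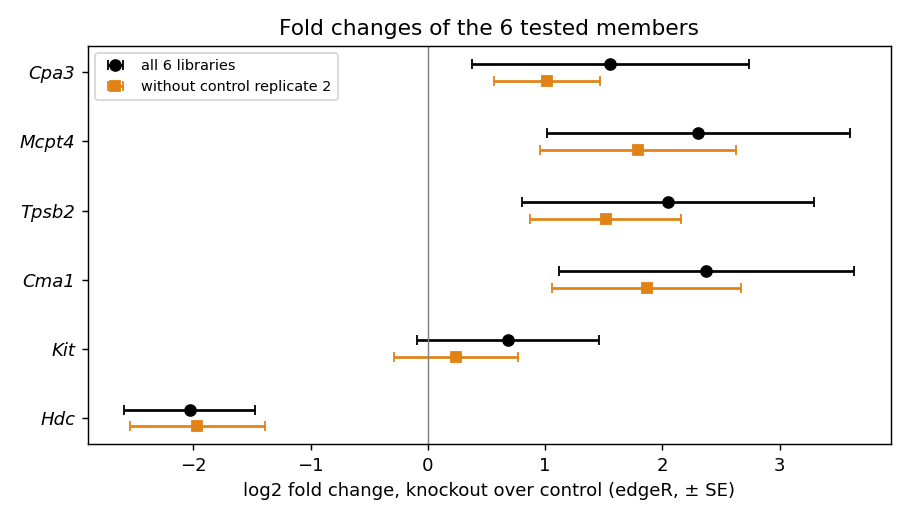
Log2 fold changes, knockout over control, of the 6 members that passed the filter on low counts, from edgeR with all 6 libraries (black circles) and without control replicate 2 (orange squares), with bars of 1 SE. The 4 proteases lay between 1.56 and 2.37 with 6 libraries and between 1.02 and 1.87 with 5, Kit lay nearer 0, and Hdc lay at −2.03 and −1.97.

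Of the 8 genes, 6 passed the filter with all 6 libraries and 7 without control replicate 2. None of the 6, and none of the 7, passed edgeR's quasi-likelihood test at an adjusted p under 0.05, where 0 of 15928 and 0 of 16729 genes passed in all (0% called in each). limma-voom also called 0% of genes. At an unadjusted p under 0.05 Hdc alone among the 6 passed, in a test that had 697 genes (4.38%) higher and 680 (4.27%) lower in knockouts at that level. DESeq2 called 525 genes (3.3%) with 6 libraries and 470 (2.81%) with 5, and Hdc alone among the members. Of the 6, 5 had a log2 fold change above 0, with a median of 1.80, against 48% above 0 and a median of −0.03 over all genes tested. Without control replicate 2, 6 of 7 were above 0 with a median of 1.02, against 47.1% and −0.04. The knockouts all exceeded the controls for Cpa3, Tpsb2 and Cma1, as they did for 9.54% of genes tested, and all lay below them for Hdc, as for 5.61%. Without control replicate 2 these 4 genes were again the ones among the 7 tested without overlap, against 13.4% higher and 12.3% lower of all genes. For each of these 4 genes the exact two-sided permutation test of mean log2(CPM + 1) gave p = 0.1, the smallest that 3 against 3 libraries allow. The same exact test gave p = 0.1 for Ms4a2, which is near the floor, 0.2 for Mcpt4, 0.4 for Kit and 0.5 for Fcer1a. The sample titles carry numbers whose meaning is not stated, and those of knockout replicate 3 (9017) and control replicate 3 (9016) are consecutive and apart from the others (5566 to 7690). Within that pair the proteases took 12.1 ppm in the knockout and 11.5 ppm in the control, and Hdc stood at 0.776 CPM in the knockout and 6.93 CPM in the control. In the 4 other libraries alone the edgeR log2 fold change was 2.27 for Cpa3, 4.20 for Mcpt4, 2.86 for Tpsb2, 4.04 for Cma1, 2.05 for Kit and −1.73 for Hdc (adjusted p 0.407 to 0.591). Those 4 include control replicate 2, which had a liver profile and no protease counts. With all 6 libraries and the 2 title series as a term the values were 1.63, 2.90, 2.01, 2.89, 1.18 and −2.17 in the same order. In both comparisons 0 genes were called. With that term and without control replicate 2 the values were lower for the proteases and Kit, at 0.88, 1.69, 1.15, 1.88 and 0.49, and −2.29 for Hdc. These comparisons were chosen after the data were seen.

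Per unit of transcript length the proteases led in knockouts. The deposited FPKM values divide by gene length and so allow levels of different genes to be compared inside a library. In knockouts Tpsb2 averaged 5.57 ± 3.46 FPKM, Mcpt4 4.99 ± 3.23, Cma1 4.58 ± 3.26, Cpa3 2.89 ± 0.930 and Kit 1.76 ± 0.359 (SD, n = 3). This SD is the spread of each gene between libraries and is not a test of differences between genes inside a library. Fcer1a followed at 0.434 ± 0.381 FPKM, Hdc at 0.247 ± 0.138 and Ms4a2 at 0.0438 ± 0.0276. Within each knockout library the proteases took the first 4 places, Kit the fifth and Hdc the place before last. Among the proteases Tpsb2 exceeded Mcpt4, and Mcpt4 exceeded Cpa3, in each knockout library, while the place of Cma1 varied. In knockout replicate 3 Mcpt4 and Cpa3 were close, at 1.90 and 1.83 FPKM. In controls the order was not shared. Tpsb2 led in control replicate 1 at 1.83 FPKM, Kit led in control replicate 3 at 2.34 FPKM, and Hdc led in control replicate 2 at 1.11 FPKM. Hdc lay at 0.946, 1.11 and 0.972 FPKM in controls, and in control replicate 1 it exceeded both Mcpt4 at 0.616 FPKM and Cma1 at 0.596 FPKM.

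Genes on further mast cell lists, made by known function with earlier results of these data in view, were mostly higher in knockouts. None of them was called by edgeR. Some of them, such as Fcer1g and Hpgds, are also expressed by other cells. All 10 genes of the macrophage list were above 0 as well, with a median of 2.63. The part of macrophages in these lists was not tested. Of 14 further identity genes, 10 were tested, 9 had a log2 fold change above 0, and the median was 1.07. Without control replicate 2 it was 0.80, with 9 of 11 above 0. Rab27b, which moves granules to the cell surface, had 5.82, 3.33 and 5.90 CPM in knockouts and 0.712, 1.88 and 1.58 CPM in controls (1.86 ± 0.57 SE, edgeR adjusted p 0.560; DESeq2 adjusted p 0.0403). Fcer1g, the signalling chain that the IgE receptor shares with other Fc receptors, had 108, 158 and 42.6 CPM in knockouts and 48.4, 17.4 and 21.7 CPM in controls (1.82 ± 0.62 SE, edgeR adjusted p 0.560). Among the factors of the lineage, Gata2 had 6.86, 11.4 and 11.9 CPM in knockouts and 6.85, 1.34 and 6.56 CPM in controls. Il1rl1, the IL-33 receptor gene of mast cells and type 2 lymphocytes, had 11.6, 7.40 and 8.19 CPM in knockouts and 2.55, 0 and 5.28 CPM in controls. Smaller or opposite log2 fold changes were found for Slc18a2 (−0.62), Tal1 (0.15), Mrgprb1 (0.60) and Csf2rb (0.60). Without control replicate 2 they were −0.07, −0.15, 0.11 and 0.14 in that order. These genes, like Gata2 and Il1rl1, were named after their values were seen. Mrgprb2, the receptor of connective tissue mast cells for basic peptides, had 6, 17 and 1 counts in knockouts and 9, 0 and 2 counts in controls.

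**Figure D4:**
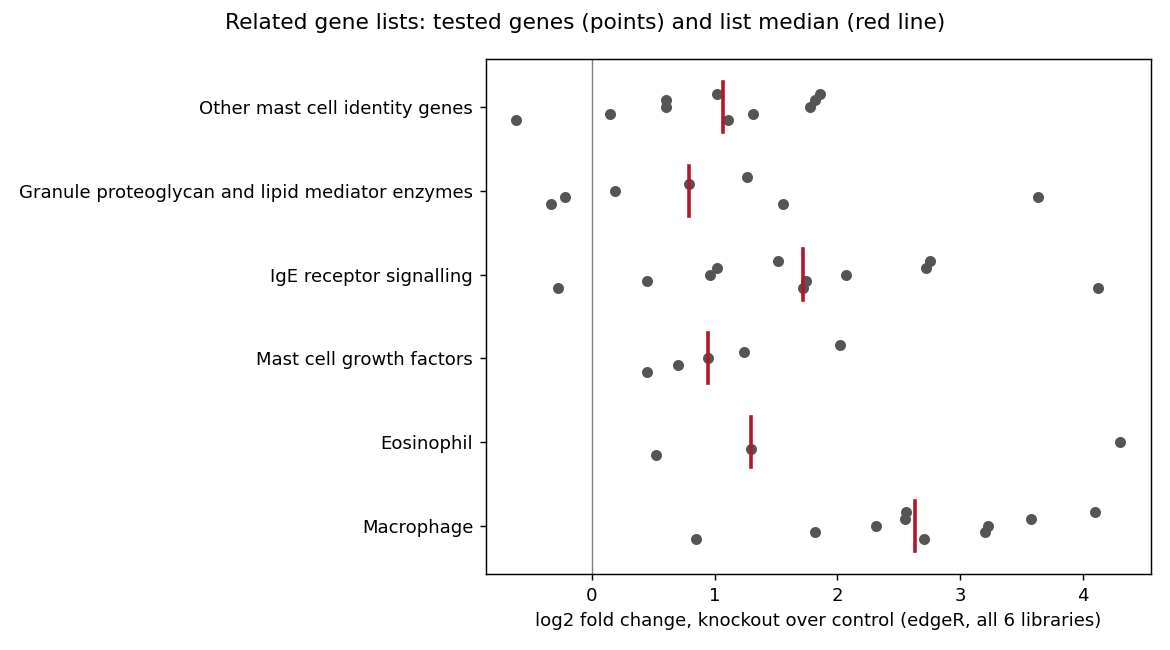
Log2 fold changes, knockout over control, from edgeR with all 6 libraries, for the tested genes (points) of 6 lists, with the list median as a red line. The medians were 1.07 for other mast cell identity genes, 0.79 for granule proteoglycan and lipid mediator enzymes, 1.72 for IgE receptor signalling, 0.95 for mast cell growth factors and 2.63 for macrophage genes, and the eosinophil list had 3 tested genes. Among lists not drawn, the medians were −0.23 for histamine breakdown and receptors, −0.14 for Kit sources, −1.83 for neutrophil and 0.45 for basophil genes.

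Genes for granule matrix and lipid mediators were mixed, with 5 of 7 above 0 and a median of 0.79, and with 4 of 7 above 0 and a median of 0.45 without control replicate 2. Hpgds, the synthase of prostaglandin D2 that macrophages also express, had 62.5, 88.2 and 7.18 CPM in knockouts and 5.69, 2.95 and 4.03 CPM in controls (3.63 ± 0.91 SE, edgeR adjusted p 0.560; DESeq2 adjusted p 0.00555). Alox5ap, which presents arachidonic acid to the leukotriene enzyme, had 37.5, 39.8 and 27.3 CPM in knockouts and 29.2, 2.95 and 11.2 CPM in controls (1.27 ± 0.76 SE). Srgn, the serglycin core protein, had 90.8, 88.5 and 72.0 CPM in knockouts and 84.6, 21.8 and 38.8 CPM in controls, and the groups overlapped.

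Signalling genes downstream of the IgE receptor were 10 of 11 above 0, with a median of 1.72, and 7 of the 11 were higher at an unadjusted edgeR p under 0.05, as were 4.38% of all genes tested. Without control replicate 2, 9 of the 11 were above 0. Lat2, an adaptor of mast cells, B cells and monocytes, had 32.7, 50.2 and 8.96 CPM in knockouts and 1.98, 0.447 and 2.71 CPM in controls (4.12 ± 0.90 SE, edgeR adjusted p 0.560). Plcg2, a phospholipase of B cells and myeloid cells, had 509, 714 and 168 counts in knockouts and 107, 30 and 129 counts in controls (2.07 ± 0.57 SE, edgeR adjusted p 0.560). Of the 11 genes, 2 were called higher by DESeq2 with 6 libraries and 4 with 5, against 1.73% and 2.13% of all genes called higher. These genes are shared with macrophages. The 10 macrophage genes summed to 3607, 4534 and 852 CPM in knockouts and 668, 272 and 700 CPM in controls, with 10 of 10 above 0. Lyz2, whose locus drives Cre, made up 1945, 2334 and 376 CPM of these sums in knockouts and 299, 123 and 369 CPM in controls. The part of macrophage genes in the signalling result was not tested.

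Growth factors of mast cells were 5 of 5 tested above 0, with a median of 0.95, which was 0.53 without control replicate 2, and Il3 and Il9 had no counts. Kitl, which encodes stem cell factor, had 104, 91.0 and 81.7 CPM in knockouts and 44.0, 9.66 and 89.8 CPM in controls, and control replicate 3 was close to the knockouts. Tgfb1 had 119, 185 and 55.5 CPM in knockouts and 33.0, 13.9 and 41.7 CPM in controls (2.02 ± 0.60 SE, edgeR adjusted p 0.560). Il33 had 4.77, 11.2 and 2.83 CPM in knockouts and 1.95, 4.38 and 1.69 CPM in controls (1.24 ± 0.69 SE). Of genes of histamine breakdown and its receptors, 1 of 3 tested was above 0. Histamine is broken down by the product of Hnmt, which had 24.6, 21.0 and 54.6 CPM in knockouts and 42.5, 152 and 35.5 CPM in controls. Its log2 fold change was −1.20 ± 0.70 (SE), and −0.22 without control replicate 2. The histamine receptor gene Hrh1 had 80, 53 and 83 counts in knockouts and 89, 0 and 34 counts in controls.

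Markers of neighbouring granulocytes were few. The basophil list had 3 of 3 tested genes above 0 with a median of 0.45, and 2 of 3 with a median of 0.17 without control replicate 2. In it, Mcpt8 was at 0 and Cd200r3 had 6, 6 and 9 counts in knockouts and 0, 0 and 5 counts in controls. Il3ra, a receptor chain that other myeloid and endothelial cells share, had 44.7, 46.4 and 27.9 CPM in knockouts and 17.9, 4.11 and 20.1 CPM in controls (edgeR adjusted p 0.560). Il4 had a log2 fold change of 0.45 ± 0.62 (SE, edgeR adjusted p 0.874). In the eosinophil list, with 3 of 3 tested genes above 0, Epx and Ear6 had 2 counts and 0 counts over all libraries. Ear2, also made by macrophages, had 12.1, 18.6 and 23.2 CPM in knockouts and 7.27, 5.81 and 8.80 CPM in controls (edgeR adjusted p 0.560). Ccr3, the eotaxin receptor, had 123, 92 and 11 counts in knockouts and 9, 0 and 0 counts in controls.

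Composition differed between libraries beyond the mast cell genes. Adipocyte genes summed to 25156, 18127 and 57797 CPM in knockouts and 73693, 7075 and 39336 CPM in controls, with control replicate 2 lowest. Endothelial genes summed to 659, 612 and 599 CPM in knockouts and 731, 120 and 805 CPM in controls, with control replicate 2 lowest. Of the 6 endothelial genes, 5 had a log2 fold change above 0 with all 6 libraries and 0 without control replicate 2. T cell genes summed to 22.4 to 28.7 CPM in knockouts and 6.44 to 9.79 CPM in controls, without overlap. The lowest sum was that of control replicate 2. Much of the knockout sums came from Trac, at 15.7, 9.89 and 13.3 CPM in knockouts and 1.35, 1.97 and 2.42 CPM in controls. The groups did not overlap for Cd3d and Trbc2 either, but they overlapped for Cd3e, Cd3g, Cd4 and Cd8a. Of all genes tested, 9.54% were higher in the knockouts without overlap. Fibroblast genes summed to 3024, 7254 and 1775 CPM in knockouts and 1105, 336 and 1857 CPM in controls, again with control replicate 2 lowest. The hepatocyte list without Hp, which was high in every library, summed to 7.42, 1116 and 92.7 CPM in knockouts and 9.96, 222859 and 6382 CPM in controls. Knockout replicates 1 and 2, which had the most protease counts, also had the highest macrophage and fibroblast sums and, among the libraries other than control replicate 2, the lowest adipocyte sums. The part of these differences in the mast cell results was not tested.

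The genes most like the members across libraries were found by Pearson's r with the mean of the 8 standardised member profiles over 6 libraries, among 13116 other genes of at least 1 CPM. The first 8 were Cracr2a, Akna, Adcy3, Tmem104, Tbc1d9, Pip5k1c, Abr and Mcm4, with r from 0.998 to 0.993. Over the 5 libraries without control replicate 2 their r ran from 0.997 to 0.986. Cracr2a, a calcium sensor of store-operated entry, had 1.76, 2.56 and 0.776 CPM in knockouts and 0.786, 0 and 1.06 CPM in controls. With the 4 proteases alone in the profile, a choice made after Hdc was seen to differ, the first 8 were Speg, Axl, Scarf2, Foxm1, Mmp2, Fbxo46, Arhgap45 and Ckb, with r from 0.998 to 0.995. Axl, a receptor tyrosine kinase of macrophages and stromal cells, had 154, 220 and 80.6 CPM in knockouts and 57.0, 24.1 and 82.0 CPM in controls. The 2 sets of 8 shared no gene, and none of these genes is a mast cell granule gene. With 6 points drawn from the same libraries, these correlations are a description and carry no test.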

How the data were processed

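RNA sequencing libraries of mouse epididymal fat were made from mRNA purified from total RNA, per the labels' protocols. Per the submitters' processing notes the tools were featureCounts 1.5.0-p3, StringTie 1.3.3b, HISAT2 2.0.5 and fastp, and the build was mm10. How reads were assigned to strands and genes is not given in the sources used here. The authors deposited raw counts per gene, which were used for all tests. The authors also deposited FPKM values, whose library scale is their own, used for levels between genes and as an alternative.

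Symbols were matched for 54409 of 54532 identifiers, and GENCODE vM21 (GRCm38, which is mm10) gave the coordinates. Library totals were 20108185 to 27225533 counts. Replicate pairs differed by a chi-square per degree of freedom of 62.4 to 1235, so each library counted as 1 sample. Genes kept by filterByExpr were tested with edgeR 4.0.16 (R 4.3.3), robust quasi-likelihood, TMM scaling and Benjamini-Hochberg adjustment at 0.05. SE is the fold change over the root of F. DESeq2 1.42.0, limma 3.58.1 and other settings were alternatives. The tests were run on simulated counts, with a pass required only of edgeR for large fold changes. The simulation used a single dispersion for all genes and had no liver library. It therefore does not settle how the tests behave on these data. Replicates are numbered in record order, and control replicate 2 is the library with a liver profile. CPM is scaled by TMM unless named a share of all counts.

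Members and lists were chosen with earlier results of these data known. Genes named are the members, the 2 of smallest p in each related list and the 8 most alike. Further list genes were named after their values were seen. The lists of macrophage, T cell, neutrophil, endothelial, fibroblast, adipocyte and hepatocyte genes are given as sums. Protein sequences were not used here.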

Additional observations from a re-analysis of the deposited data

How the results depend on the processing

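For the 6 tested members, 118 of 120 values under 20 alternatives kept the direction and the side of the threshold of edgeR with 6 libraries, and none changed sign. The 2 others were Hdc under DESeq2 with 6 libraries and under DESeq2 without control replicate 2, which was added after the data were seen. DESeq2 called 525 genes with 6 libraries and 470 with 5, and 1 member (Hdc) each time, whereas the other 18 alternatives, among them limma-voom, called 0 genes and 0 members. In edgeR with 6 libraries 697 genes were higher and 680 lower at an unadjusted p under 0.05. With 1 library left out the number of genes called stayed at 0, and the number of members called stayed at 0. The median of the 6 members ranged from 1.27 to 2.26. The 1.27 was without control replicate 2, where all 7 members then tested had a median of 1.02. The median of the 6 was 1.31 on log2(FPKM + 1), 2.47 on log2(FPKM + 0.1) and 2.52 with limma-voom. Hdc stood at −0.70 on log2(FPKM + 1), a scale that compresses low values, Kit at 1.07 on log2(FPKM + 0.1) and at 1.38 without control replicates 2 and 3, and Cpa3 at 2.35 with limma-voom. Scaling by total counts moved the median of all genes by 0.37, and the members' median was then 2.01. In comparisons added after the data were seen, the median was 1.82 with the title series as a term, 1.01 with that term and without control replicate 2, and 2.57 in the 4 libraries of lower title number. Those 4 libraries include control replicate 2. No paired analysis was possible because the labels give no replicate numbers, and the title numbers differ between all samples with no stated meaning. Depth limited Ms4a2 and Fcer1a, with at most 27 counts in a library.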
